A study of Mus musculus with 24 samples.

Results

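The mitochondrial ribosomal proteins are the nuclear-encoded proteins of the ribosome inside mitochondria, and their transcripts were followed across the hearts of 2 transgenic mouse lines and their wild type littermates. Genes were taken by symbol, Mrpl for the large and Mrps for the small subunit followed by a number and at most 1 letter. No measured change was used to pick genes within the family, but the family was chosen with earlier results of these data known. The rule found 132 probes of 76 genes among 45281 probes. Probes were kept where the detection p-value, a measure of signal above the background of the array, was under 0.05 on at least 3 of 24 arrays, which left 73 genes. The 73 genes, 48 of the large and 25 of the small subunit, were tested among 12011 genes, each through its brightest kept probe. Mrpl19, Mrpl32 and Mrps14 had no kept probe, and the probe of Mrps14 was detected on 2 arrays.

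Mitochondria keep their own ribosome, which reads the few messages of the mitochondrial genome, all of them for subunits of the respiratory chain and ATP synthase. Its RNAs come from mitochondrial DNA, while every one of its proteins is encoded in the nucleus, made in the cytosol and imported. Many of these proteins have a counterpart in the bacterial ribosome and form the old core of the particle, and the others were gained in mitochondria and mostly lie on its surface. The heart, with its high demand for ATP, is rich in mitochondria, and human mutations in MRPL3, MRPL44, MRPS14 and MRPS22 have been linked to cardiomyopathy.

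The hearts were whole, and every mouse was a female of the FVB/N strain with 1 array of its own. Transgenic mice were hemizygous for MHC-CELF∆, a dominant negative protein that acts in the nucleus against the CELF splicing regulators, driven by the α-myosin heavy chain promoter of heart muscle cells. At 24 weeks of age there were 5 mice of line MHC-CELF∆-10, here the severe line, 5 of line MHC-CELF∆-574, the mild line, and 4 wild type littermates. At 3 weeks there were 3 severe line, 3 mild line and 4 wild type mice, and each line gave 2 wild type littermates at either age. Values are log2 intensities after quantile normalization between arrays. Differences are transgenic line minus wild type unless stated otherwise, and adjusted p-values are Benjamini-Hochberg values from limma over all 12011 genes. Of the 73 genes, 72 were detected on all 24 arrays. The share of all probes detected was at most 42.1% on 22 arrays, and was 44.4% on severe line array 5 and 43.4% on wild type array 2 of 24 weeks.

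Mitochondrial ribosomal protein transcripts were lower in severe line hearts at 24 weeks. Of the 73 genes, 40 fell and none rose at an adjusted p under 0.05, against 7.32% of all genes tested that were lower and 8.26% that were higher. The median difference over the 73 genes was -0.36 (range -0.74 to 0.23), and 3 of 73 were above 0, while over all genes the median was 0.0 and 50.5% were above 0. Both subunits took part. In the large subunit 28 of 48 genes fell (median -0.38), and in the small subunit 12 of 25 (median -0.35). Of 44 genes with a bacterial counterpart 24 fell (median -0.4), as did 16 of 29 genes specific to mitochondria (median -0.31). None of the 73 differences reached 2-fold.

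The mean over the 73 genes separated the arrays of the severe line from all others of the same age. It was 9.87, 9.79, 9.83, 9.80 and 9.60 in the 5 severe line hearts, 10.14, 10.08, 10.13, 10.04 and 10.07 in the 5 mild line hearts, and 10.14, 10.07, 10.19 and 10.17 in the 4 wild type hearts at 24 weeks. The severe line arrays lay below every mild line and wild type array, and those of the mild line and wild type overlapped. These hearts were measured whole, so fewer cells of a type and less RNA per cell cannot be told apart.

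**Figure D1:**
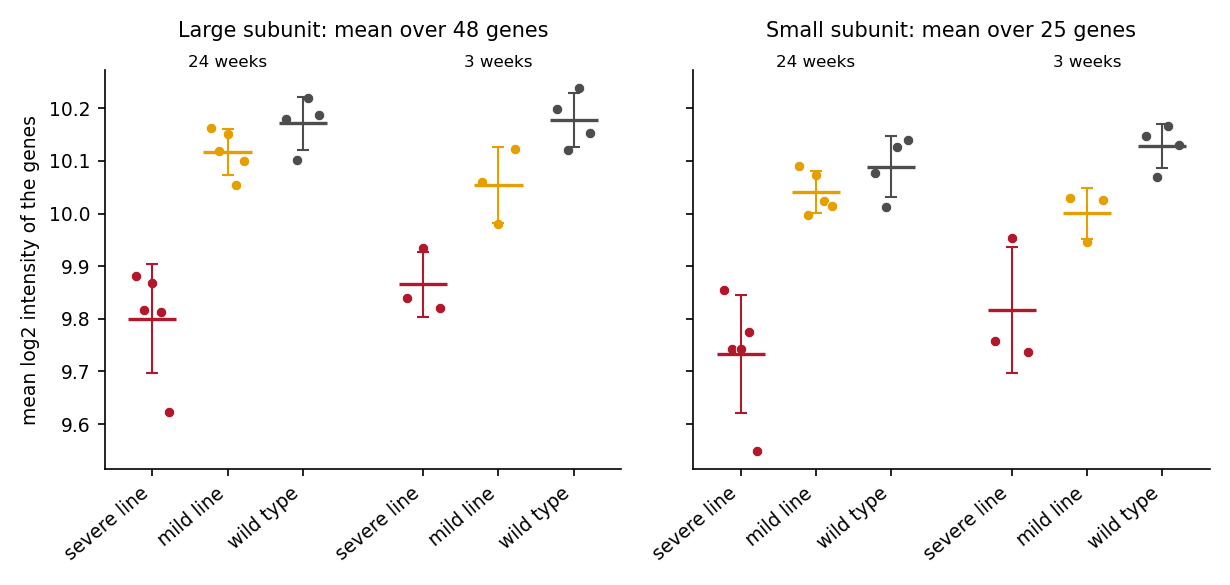
Mean log2 intensity over the 48 large subunit genes (left panel) and the 25 small subunit genes (right panel) on each array, by group and age, where points are single hearts, horizontal lines group means and bars the SD. At 24 weeks the severe line hearts averaged 9.8 in the large and 9.73 in the small subunit, against 10.17 and 10.09 in wild type hearts.

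Among small subunit genes, Mrps35, a protein specific to mitochondria, was 9.59, 9.25, 9.24, 9.49 and 9.39 in severe line and 9.95, 10.13, 10.25 and 10.21 in wild type hearts at 24 weeks. All severe line values were below all wild type values, and the difference of -0.74 ± 0.1 (SE, adjusted p = 2.31e-05) left 59.8% of the wild type intensity. Mrps28, related to bacterial S1, was 9.92, 9.89, 9.77, 10.06 and 10.02 in severe line hearts against 10.58, 10.86, 10.38 and 10.6 in wild type hearts, again without overlap (-0.67 ± 0.1, adjusted p = 5.14e-05). Mrps9, the counterpart of bacterial S9, was 10.48, 10.17, 10.23, 9.96 and 9.88 against 10.92, 10.71, 10.73 and 10.74 in wild type hearts (-0.63 ± 0.1, adjusted p = 5.51e-05). Mrps12, the counterpart of S12 at the decoding site, was 9.83, 9.93, 10.12, 9.78 and 9.09 in severe line and 10.66, 10.13, 10.77 and 10.12 in wild type hearts. The groups of Mrps12 met at 10.12, the value of the third severe line heart and the fourth wild type heart, and the difference was -0.67 ± 0.17 (adjusted p = 0.00703).

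In the large subunit, Mrpl14, the counterpart of L14 at the face that meets the small subunit, was 11.02, 10.89, 10.89, 10.95 and 10.4 in severe line and 11.54, 11.26, 11.6 and 11.66 in wild type hearts. The groups did not overlap, the fifth severe line heart lay well below the other 4, and the difference was -0.69 ± 0.12 (adjusted p = 2.22e-04). Mrps30, which carries a small subunit name but sits in the large subunit, was 10.24, 10.4, 10.39, 10.36 and 10.11 against 10.9, 10.83, 11.01 and 10.93 in wild type hearts. Its difference of -0.62 ± 0.08 had the smallest adjusted p of the 73 genes (1.62e-05). Mrpl47, near the exit of the tunnel through which new chains leave, was 9.2, 9.03, 8.95, 9.11 and 9.13 in severe line and 9.39, 10.16, 9.6 and 9.84 in wild type hearts, with no overlap (-0.66 ± 0.14, adjusted p = 0.0022). Mrps18a, also a large subunit protein, overlapped between the groups. It was 10.97, 10.8, 10.77, 10.73 and 9.65 in severe line hearts, against 11.31, 10.7, 11.62 and 11.28 in wild type hearts (-0.64 ± 0.2, adjusted p = 0.0281), and without the fifth severe line heart the difference was -0.41 (adjusted p = 0.0438). It did not pass without the first, the third or the fourth wild type heart (adjusted p = 0.0751, 0.125 and 0.0656).

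**Figure D2:**
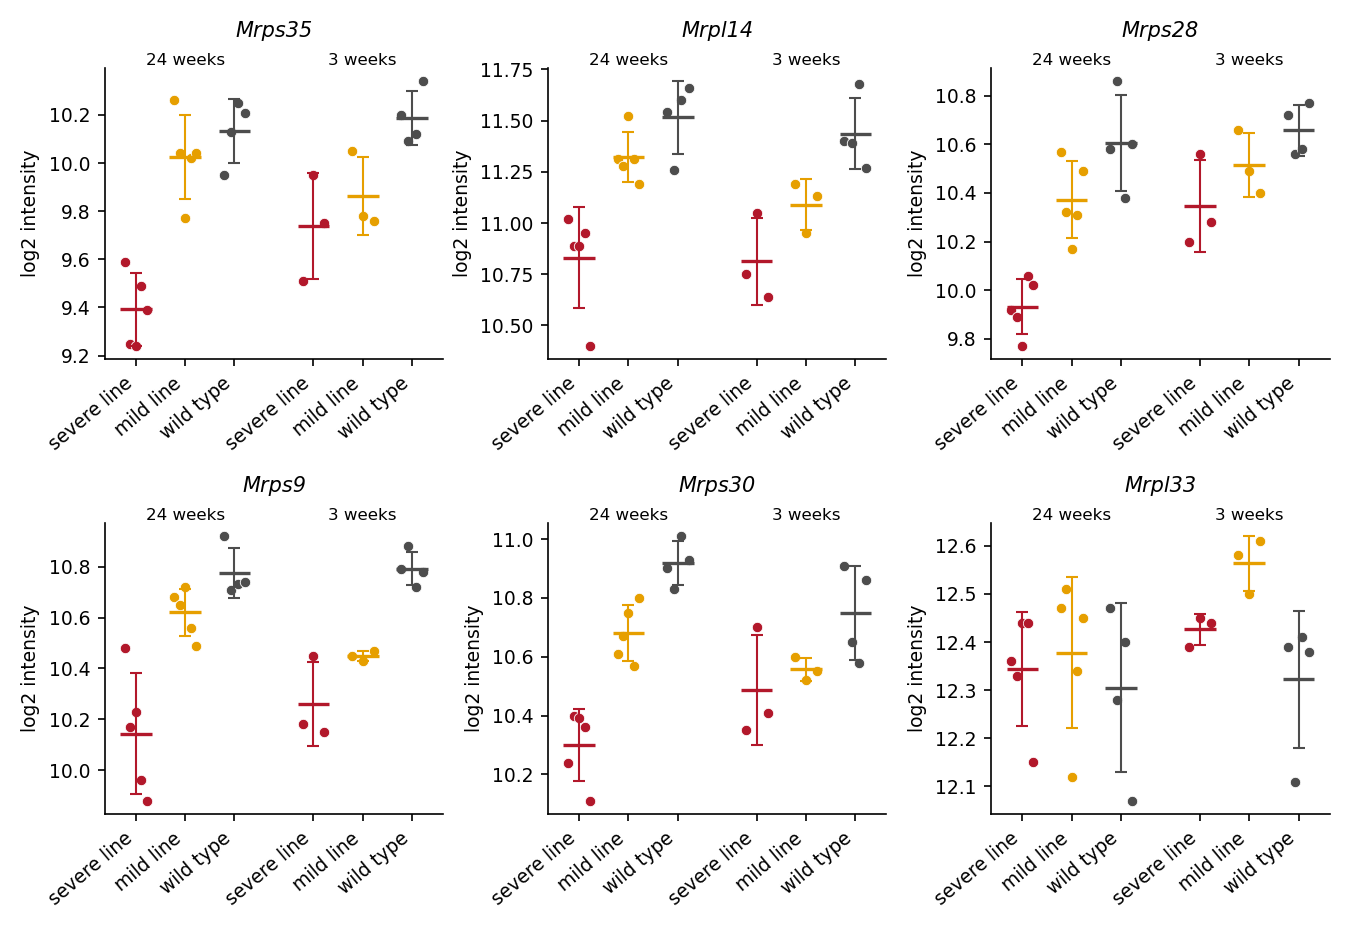
Log2 intensity of Mrps35, Mrpl14, Mrps28, Mrps9, Mrps30 and Mrpl33 in every heart, by group and age, with group means (lines) and SD (bars), where each panel has its own vertical axis, which does not start at 0. The severe line hearts of 24 weeks lie below all wild type hearts of that age for the first 5 genes and among them for Mrpl33.

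All severe line arrays were below all wild type arrays of 24 weeks for 25 of the 73 genes and above them for none, against 5.04% and 6.49% of all genes. Differences above 0 were found for 3 genes, named after their values were seen. Mrpl33, the counterpart of L33, was 12.36, 12.33, 12.44, 12.44 and 12.15 in severe line and 12.47, 12.28, 12.4 and 12.07 in wild type hearts, a difference of 0.04 with a 95% interval of -0.15 to 0.23. Mrpl53 was 9.93, 10.35, 10.74, 10.04 and 11.34 in severe line and 10.14, 10.98, 9.93 and 10.31 in wild type hearts, a difference of 0.14 (-0.38 to 0.66) that turned to -0.08 without the fifth severe line heart. Mrps6, the counterpart of S6, was 10.78, 10.79, 10.72, 10.91 and 10.15 in severe line and 10.45, 10.15, 10.47 and 10.7 in wild type hearts. Its first 4 severe line values were above all wild type values and the fifth was not, with a difference of 0.23 (-0.07 to 0.53, adjusted p = 0.35) that became 0.36 (adjusted p = 0.0492) without the fifth severe line heart.

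Of the genes tied to human cardiomyopathy, Mrpl3, the counterpart of L3 near the catalytic centre, fell. It was 10.57, 10.42, 10.64, 10.27 and 10.4 in severe line and 11.08, 10.68, 10.95 and 10.77 in wild type hearts at 24 weeks (-0.41 ± 0.11, adjusted p = 0.00816). Mrpl44, specific to the mitochondrial ribosome, differed by -0.26 ± 0.14 (adjusted p = 0.258), with 4 severe line hearts between 7.81 and 7.98, the fifth at 8.42, and wild type hearts between 8.09 and 8.55. Mrps22, specific to the mitochondrial small subunit, differed by -0.21 ± 0.12 (adjusted p = 0.307). Its first 4 severe line hearts were at 8.21, 8.29, 8.22 and 7.96, the fifth at 8.62, and wild type hearts between 8.37 and 8.59.

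The size of the difference and the number of calls moved with the normalization. With the raw intensities scaled only to a common median over all probes, 1 of 73 genes was lower in the severe line at 24 weeks and the median difference was -0.23, while the median of all 12011 genes moved to 0.08. With the common median set over the kept probes, an alternative added after the data had been seen, 29 were lower (median -0.34, all genes -0.03). With normexp background correction followed by quantile normalization, 35 were lower (median -0.42). The raw intensities also fell into 2 sets of 12 arrays by their lowest value, 54.2 to 62.8 and 38.9 to 47.2, each holding arrays of all 6 groups, with the wild type mice of an age in 1 set all from 1 colony. Within the set of higher background the median difference was -0.25 with 14 genes lower, and within the other it was -0.44 with 7 lower, both with fewer arrays. Without the 2 arrays that had the largest shares of detected probes, 38 genes were lower (median -0.36), 36 of them among the 40. The share of all genes called under each of these settings is not given here. The counts alone therefore do not show whether calls were lost among the 73 genes or among all genes, and this holds for such counts below as well.

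**Figure D3:**
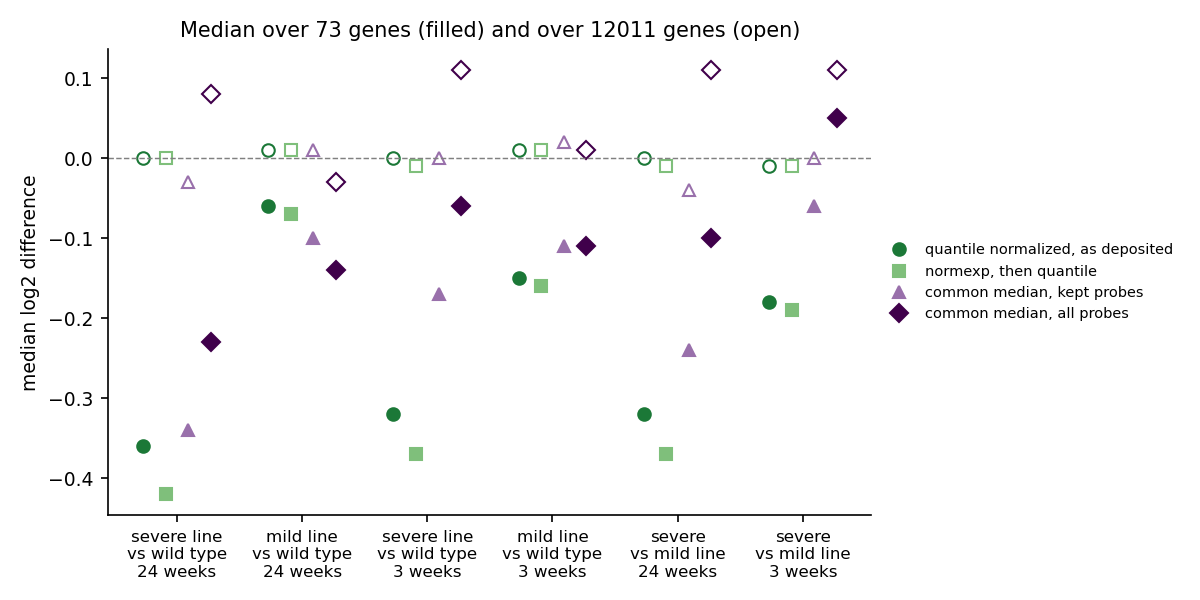
Median log2 difference over the 73 mitochondrial ribosomal protein genes (filled) and over all 12011 genes (open) in 6 comparisons, under the deposited quantile normalization and 3 other treatments of the raw intensities. The median in severe line against wild type hearts was -0.36 at 24 weeks and -0.32 at 3 weeks with the deposited values, and -0.23 and -0.06 with a common median over all probes, where that of all genes moved to 0.08 and 0.11.

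At 3 weeks the transcripts were also lower in the severe line, with fewer genes past the threshold. Of the 73 genes 11 fell and none rose, against 1.96% of all genes lower and 2.66% higher, and the median difference was -0.32 (range -0.62 to 0.11). Differences were above 0 for 3 of 73 genes, against 49.3% of all genes, and 39 had a raw p under 0.05, against 8.03% of all genes in that direction. All 11 genes were among the 40 that fell at 24 weeks, which is 100% of the 11 and 27.5% of the 40. The array means over the 73 genes were 9.81, 9.94 and 9.79 in severe line and 10.18, 10.10, 10.21 and 10.15 in wild type hearts, without overlap. With the common median over all probes no gene passed and the median was -0.06, beside 0.11 for all genes, and no gene passed within either background set, where the medians were -0.26 in the higher and -0.39 in the lower. Without the first or the third severe line heart or the first wild type heart 2, 3 and 6 genes were lower, without the second severe line heart 17 were, and with wild type mice of the severe colony alone 1 was.

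Mrpl14 had the largest difference at 3 weeks, at 10.75, 11.05 and 10.64 in severe line and 11.4, 11.39, 11.68 and 11.27 in wild type hearts (-0.62 ± 0.13, adjusted p = 0.00766). Mrps16, the counterpart of S16, was 9.54, 9.91 and 9.37 against 10.01, 10.35, 10.23 and 10.11 in wild type hearts (-0.57 ± 0.12, adjusted p = 0.0082). Mrpl12, of the stalk that recruits translation factors, was 11.06, 11.17 and 11.26 against 11.59, 11.7, 11.95 and 11.6 in wild type hearts (-0.54 ± 0.13, adjusted p = 0.0176). None of these 3 genes had overlapping groups, and none of them passed without the first severe line heart (adjusted p = 0.0519, 0.0605 and 0.112). Mrpl14 and Mrps16 did not pass without the third severe line heart either (adjusted p = 0.0767 and 0.1). Mrpl12 did not pass without the third wild type heart (adjusted p = 0.067). Mrpl3 (10.47, 10.47 and 10.29 against 10.96, 10.96, 11.05 and 10.8 in wild type hearts) and Mrps9 (10.18, 10.45 and 10.15 against 10.79, 10.88, 10.72 and 10.78) each fell by 0.53. Mrpl46, a protein specific to mitochondria, fell by 0.51, and Mrpl34, Mrps35, Mrpl15, Mrpl43 and Mrpl48 by 0.29 to 0.48. All severe line arrays were below all wild type arrays for 35 of 73 genes, against 8.8% of all genes, and above them for none, against 8.54%.

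**Figure D4:**
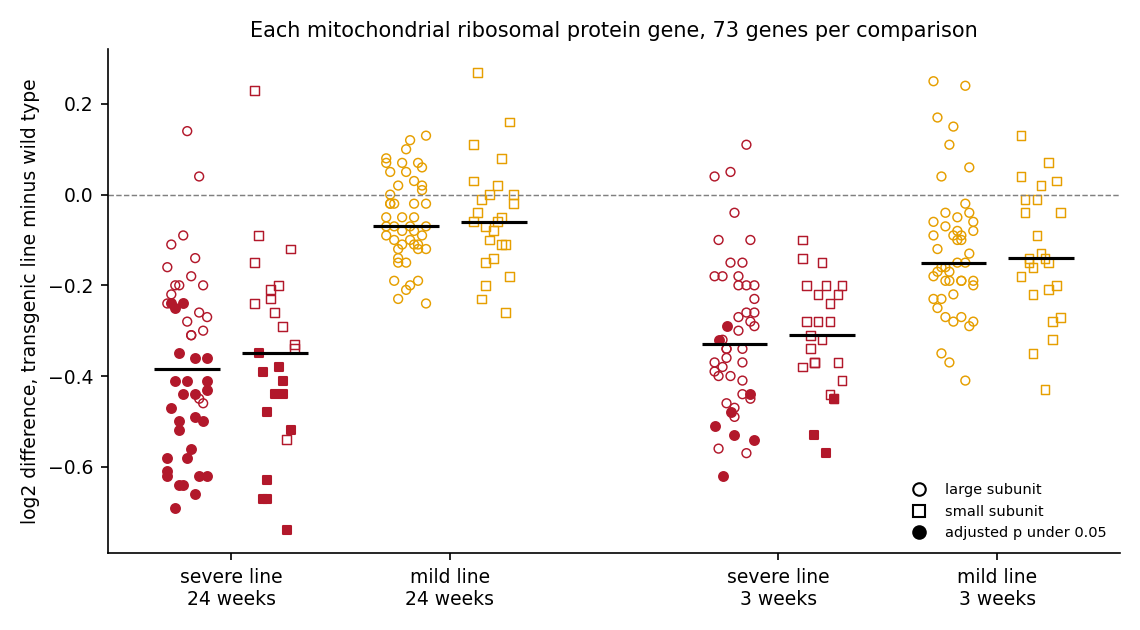
Log2 difference from wild type of the same age for each of the 73 genes in the severe and mild lines at 24 and 3 weeks, where circles are large and squares small subunit genes, filled symbols have an adjusted p under 0.05, and black lines are medians. In the severe line 40 genes at 24 weeks and 11 at 3 weeks are filled, all below 0, and in the mild line none.

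No gene passed the test in the mild line, which was set against the same wild type arrays, at either age. At 24 weeks 0 of 73 genes were lower, against 0.541% of all genes (0.425% higher), the median difference was -0.06, and 3 genes, against 3.4% of all genes, were lower at a raw p under 0.05. The gene with the smallest raw p was Mrps30, at 10.61, 10.67, 10.75, 10.57 and 10.8 in mild line and 10.9, 10.83, 11.01 and 10.93 in wild type hearts. Its groups did not overlap, and the difference of -0.24 had a 95% interval of -0.41 to -0.06 (adjusted p = 0.333). Mrpl22, at the tunnel exit, followed with -0.23 (-0.44 to -0.02, adjusted p = 0.518).

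At 3 weeks 0 of 73 genes passed in the mild line, against 1.26% of all genes lower and 1.07% higher. Differences were below 0 for 61 of 73 genes (median -0.15), where 51.6% of all genes were above 0, and 8 genes lower and 1 higher had a raw p under 0.05, against 5.54% and 5.65% of all genes. Mrps16 was 9.76, 9.63 and 9.85 in mild line hearts, all below the 4 wild type hearts (-0.43, interval -0.69 to -0.17, adjusted p = 0.0758). Mrpl34, the counterpart of L34, was 10.05, 9.82 and 10.3 against 10.56, 10.32, 10.43 and 10.39 in wild type hearts (-0.37, interval -0.61 to -0.13, adjusted p = 0.112). The 1 gene with a raw p under 0.05 and a higher value was Mrpl33, at 12.58, 12.5 and 12.61 in mild line and 12.39, 12.11, 12.41 and 12.38 in wild type hearts (0.24, adjusted p = 0.332).

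The 2 lines were also set against each other, in comparisons that share the severe line arrays with those above. At 24 weeks 29 of 73 genes were lower in severe than in mild line hearts and none was higher, against 5.33% of all genes lower and 5.94% higher, with a median difference of -0.32. Mrpl2, the counterpart of L2, was 10.85, 10.53, 10.6, 10.79 and 9.84 in severe line and 11.16, 11.14, 11.44, 11.25 and 11.16 in mild line hearts, with no overlap (-0.71 ± 0.14, adjusted p = 0.00173). Mrpl58, which frees chains from stalled ribosomes, was 8.81, 8.66, 8.91, 8.67 and 7.82 against 9.22, 9.19, 9.55, 9.13 and 9.03 in mild line hearts (-0.65 ± 0.18, adjusted p = 0.0174). The fifth severe line heart was the lowest for both. Mrps35, Mrpl47, Mrpl1 and Mrpl46 differed by -0.63, -0.58, -0.56 and -0.54, each without overlap. Probes of Mrpl1 and of Mrpl47 lay on both sides of the threshold in this comparison when every kept probe was tested. All severe line values were below all mild line values for 20 of 73 genes, against 4.63% of all genes. With the common median over all probes 0 genes were lower (median -0.1, all genes 0.11), within the 2 background sets 2 and 4 were, and without the first mild line heart of 24 weeks 18 were.

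At 3 weeks no gene differed between the lines at an adjusted p under 0.05, against 0.125% of all genes lower and 0.45% higher in the severe line. The median was -0.18 and 4 of 73 genes were above 0, against 47.8% of all genes. At a raw p under 0.05, 11 genes were lower in the severe line, against 2.94% of all genes. Mrps23, of the small subunit, was 10.95, 10.8 and 10.8 in severe line and 11.18, 11.23 and 11.65 in mild line hearts (-0.5, interval -0.88 to -0.13, adjusted p = 0.418). Mrpl43 differed by -0.2 (adjusted p = 0.574). With the common median over all probes the median turned to 0.05, below the 0.11 of all genes.

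The ages were compared in wild type hearts. None of 73 genes passed at 24 against 3 weeks, where 1.61% of all genes were lower and 0.966% higher, the median was -0.01, and 2 higher and 3 lower genes had a raw p under 0.05, against 5.09% and 7.68% of all genes. The median was 0.15 with the common median over all probes (all genes 0.06) and 0.08 with that over the kept probes (all genes -0.01). Mrpl39 was 8.01, 7.96, 8.16 and 7.9 at 24 weeks, above the 7.76, 7.62, 7.57 and 7.86 at 3 weeks (0.3, interval 0.05 to 0.56, adjusted p = 0.254). Mrps11, the counterpart of S11, went the other way (-0.38, interval -0.68 to -0.08, adjusted p = 0.226) with overlapping ages. The change with age of the difference from wild type was tested as an interaction, and no gene passed in either line, where 0.233% of all genes were lower and 0.45% higher in the severe line and 0.05% and 0.0167% in the mild line. The median interaction was -0.07 in the severe line, with Mrps30 at -0.36 (interval -0.62 to -0.09, adjusted p = 0.301) and Mrps28 at -0.36 (-0.68 to -0.04, adjusted p = 0.475). In the mild line the median was 0.07, with Mrps16 at 0.37 (0.02 to 0.71, adjusted p = 1) and Mrpl57 at -0.23 (adjusted p = 1), and the median turned to -0.07 with the common median over all probes. The counts of 40 and 11 genes called in the severe line, from 5 hearts at 24 weeks and 3 hearts at 3 weeks, thus came without an interaction that passed.

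Where a gene had more than 1 kept probe, 27 genes in all, the dimmer probes mostly went the same way. Of the 41 dimmer probes, 38 had the sign of the brightest probe in the severe line at 24 weeks, with a median of -0.25, and 14 were lower on their own. Mrps12 (-0.67 and -0.65), Mrps25 (-0.48, -0.5 and -0.42) and Mrpl48 (-0.35, -0.34 and -0.37), picked after their values were seen, gave nearly the same difference from each probe. Probes of 10 of the 27 genes lay on both sides of the threshold in the severe line at 24 weeks when every kept probe was tested. The brightest probe passed for Mrpl3, Mrpl15, Mrpl38, Mrpl43, Mrpl47, Mrpl51 and Mrps31, and only the dimmer one for Mrps7, Mrps11 and Mrps26. With 1 probe per gene tested, Mrps11 was among the 40 genes that fell. Such genes numbered 3 at 3 weeks and 11 in severe against mild line hearts at 24 weeks. Signs differed for Mrpl38, at -0.43 from the brighter and 0.12 from the dimmer probe, and for Mrpl47, at -0.66, -0.32 and 0.06, where the last probe was detected on 8 arrays. They differed for Mrps5 as well, at -0.23 and 0.08, where neither probe passed and the dimmer was detected on 4 arrays. Of the 3 probes of Mrpl3, the dimmer ones gave -0.27 and -0.05, and neither passed.

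Other genes of the mitochondrial translation system were lower in severe line hearts of 24 weeks as well. In this comparison 7.32% of all genes tested were lower and 8.26% higher. Of 17 mitochondrial aminoacyl-tRNA synthetase genes, which load amino acids onto tRNAs, 8 fell and none rose (median -0.37), among them Ears2 for glutamate (-0.66 ± 0.11, adjusted p = 2.09e-04). Of 17 translation factor genes 7 fell (median -0.32), including Tufm, the elongation factor that brings tRNAs to the ribosome (-0.55 ± 0.12, adjusted p = 0.00295). Of 21 ribosome assembly genes 8 fell (median -0.28), including Mtg1, a GTPase of large subunit assembly (-0.55 ± 0.07), and Mrm1 and Mrm3, which methylate the ribosomal RNA (-0.56 and -0.68). Of 4 ribosomal proteins with other names, Dap3 among them, none passed (median -0.25). Of 11 genes that copy and maintain mitochondrial DNA 4 fell, with Polrmt, the RNA polymerase, at -0.49 ± 0.11. Of 12 mitochondrial chaperone and protease genes 4 fell (median -0.37). Of 11 genes of the integrated stress response, which is known to answer mitochondrial dysfunction, 3 rose, including Mthfd2, a mitochondrial folate enzyme, in the severe line (0.67), and Mthfd2 rose in the mild line too (1.19, adjusted p = 5.21e-04).

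Nuclear-encoded subunits of oxidative phosphorylation and ribosomal proteins of the cytosol were counted in the same way. Of all genes tested, 7.32% were lower and 8.26% higher at 24 weeks, and 1.96% were lower at 3 weeks. Of 75 oxidative phosphorylation genes 30 fell and none rose at 24 weeks in the severe line (median -0.37), for example Ndufb4 of complex I (-0.85 ± 0.2), and 3 fell at 3 weeks (median -0.19). Of 52 genes with names of cytosolic ribosomal proteins 2 rose and 1 fell at 24 weeks (median 0.04). The gene that fell was Rpl3l, a muscle form of Rpl3 (-1.39 ± 0.15), while Rpl3 itself rose (0.36 ± 0.11). These differences between lists were not tested.

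**Figure D5:**
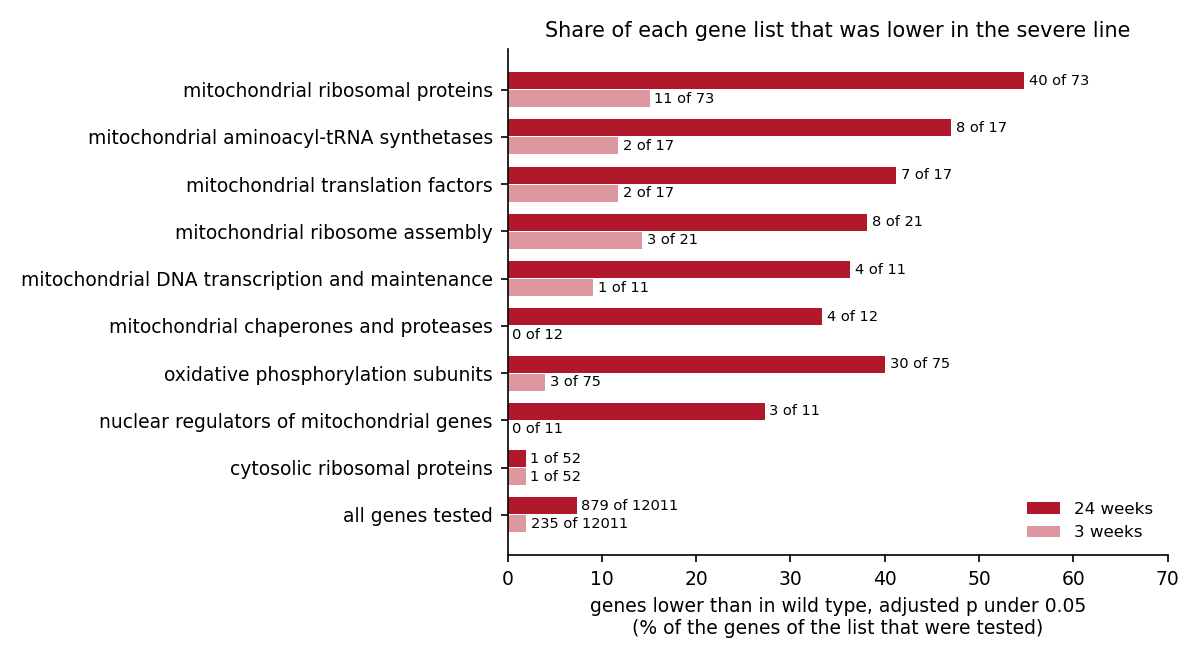
Share of the tested genes of each list that were lower in severe line than in wild type hearts at an adjusted p under 0.05, at 24 weeks (dark bars) and 3 weeks (light bars), with counts beside the bars. At 24 weeks 40 of 73 mitochondrial ribosomal protein genes, 30 of 75 oxidative phosphorylation genes and 1 of 52 cytosolic ribosomal protein genes were lower, beside 879 of 12011 genes in all.

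Markers of other cells moved with the same comparison. Of 12 fibroblast and matrix markers 8 rose in severe line hearts at 24 weeks, including Col1a1, a collagen chain (1.66 ± 0.24), and their summed level on the linear scale was 23500 to 33800 in severe line against 15000 to 18000 in wild type hearts. At 3 weeks 1 of 12 rose and the sums were 24000 to 31300 in severe line against 18700 to 22700 in wild type hearts. Of 9 macrophage markers 3 rose at 24 weeks, led by Lgals3 (2.21 ± 0.27), with sums of 4380 to 7500 against 3150 to 4000 in wild type hearts. At 3 weeks the macrophage sums were 2720 to 3750 in severe line and 3330 to 3800 in wild type hearts, and Adgre1 fell (-0.38 ± 0.11, adjusted p = 0.0474). Of 9 endothelial markers 2 rose at 24 weeks. Among all genes tested, 8.26% rose in the severe line at 24 weeks and 2.66% at 3 weeks. Of 9 cardiomyocyte markers 1 rose and none fell at 24 weeks (median -0.04), and their sums, 124000 to 155000 in severe line and 130000 to 144000 in wild type hearts, overlapped. Such a sum is carried by its brightest genes, such as Myl3, with a mean of 14.89 in wild type hearts. The dimmer Ryr2, Pln and Tnni3 differed by -0.55, -0.42 and -0.36 (adjusted p = 0.179, 0.58 and 0.658), and the other markers by -0.2 (Ttn) to 0.38 (Mybpc3). All 9 cardiomyocyte markers, Myh6 and Ttn among them, were detected on all arrays, while the skeletal muscle myosins Myh1 and Myh4 were detected on 0 and 1 array. The 1 skeletal muscle marker tested, the troponin gene Tnnt3, was detected on 4 of the 9 severe line and wild type arrays of 24 weeks and rose in the severe line (0.31 ± 0.1, adjusted p = 0.0302). The part of other cell types in the ribosomal protein differences was not tested.

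Against 7.32% of all genes lower and 8.26% higher, 3 of 11 nuclear regulators of mitochondrial genes fell and none rose in severe line hearts at 24 weeks. These were the coactivator Ppargc1a (-1.2 ± 0.22, adjusted p = 4.63e-04), the nuclear receptor Esrra (-0.5 ± 0.1, adjusted p = 0.00111) and Ppara (-0.28 ± 0.09, adjusted p = 0.0391). At 3 weeks none of the 11 passed (median 0.06). Nrf1 and Gabpa, whose proteins bind promoters of many such genes, did not pass at either age. Short motifs of such factors were counted in the 250 bases before the first listed start of each gene in RefSeq (GRCm38.p6), on both strands, for the 65 of 73 genes that matched. CCGGAAG, the core of ETS factors such as GABPA, was present in 26.2% of the 65 promoters, in 12.5% of those of the other genes tested and in 7.05% of all promoters of that length. GCGCATGC, for NRF1, was present in 10.8%, 4.18% and 2.32% of the same sets. AAGATGGC, for YY1, was in 4.62%, 1.79% and 1.59%, and AAGGTCA, for ERR receptors such as ESRRA, in 4.62%, 2.83% and 4.05%. Among the 36 matched genes that fell in the severe line at 24 weeks, CCGGAAG was present in 25.0%, GCGCATGC in 8.33%, AAGATGGC in 8.33% and AAGGTCA in 2.78%. All 3 members with AAGATGGC were among these 36, which made up 36 of the 65 matched genes, and this was not tested. They were Mrpl36, Mrps11 and Mrps12, and the brightest probe of Mrps11 did not pass when every kept probe was tested. A CCGGAAG site can run into an AAGATGGC site through the shared letters AAG, and each was counted on its own.

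Promoters of 4 genes described above are printed to show such matches, each 5′ to 3′ on the strand of the gene and ending at the base before its start, with motif letters in capitals. Mrpl3 (chr9:105053018-105053267, plus strand) holds CCGGAAG 19 bases before its start, Mrps16 (chr14:20393491-20393740, minus strand) holds it on the opposite strand from 74 bases before, Mrpl22 (chr11:58171414-58171663, plus strand) holds CCGGAAG and GCGCATGC from 53 and 33 bases before, and Mrps12 (chr7:28741822-28742071, minus strand) holds the YY1 letters on the opposite strand from 199 bases before.
Mrpl3: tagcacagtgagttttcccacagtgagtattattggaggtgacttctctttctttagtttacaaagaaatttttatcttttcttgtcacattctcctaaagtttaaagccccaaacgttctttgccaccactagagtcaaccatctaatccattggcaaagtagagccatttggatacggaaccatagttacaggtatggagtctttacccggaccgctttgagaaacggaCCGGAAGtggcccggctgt
Mrps16: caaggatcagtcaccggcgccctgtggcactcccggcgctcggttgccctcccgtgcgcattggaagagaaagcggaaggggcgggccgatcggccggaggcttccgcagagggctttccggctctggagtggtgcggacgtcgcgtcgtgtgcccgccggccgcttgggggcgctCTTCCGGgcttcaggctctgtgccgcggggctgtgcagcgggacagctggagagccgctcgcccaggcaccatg
Mrpl22: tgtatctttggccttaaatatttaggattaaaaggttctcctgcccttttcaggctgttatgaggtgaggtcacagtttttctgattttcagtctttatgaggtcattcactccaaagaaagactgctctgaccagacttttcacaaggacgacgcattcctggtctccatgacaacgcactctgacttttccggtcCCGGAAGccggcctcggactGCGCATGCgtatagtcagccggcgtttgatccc
Mrps12: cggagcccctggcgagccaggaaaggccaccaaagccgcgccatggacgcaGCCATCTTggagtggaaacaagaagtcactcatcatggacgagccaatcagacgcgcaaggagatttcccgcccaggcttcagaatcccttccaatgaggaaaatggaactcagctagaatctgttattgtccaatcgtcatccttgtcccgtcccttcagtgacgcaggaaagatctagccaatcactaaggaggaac
Mrpl3 and Mrps16 fell in the severe line at both ages, Mrps12 at 24 weeks with -0.37 (adjusted p = 0.345) at 3 weeks, and Mrpl22 at 24 weeks (-0.5) with -0.34 (adjusted p = 0.102) at 3 weeks. A match of letters is a description of the sequence, and binding was not measured.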

How the data were processed

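Whole-heart RNA of 24 mice was hybridised to Illumina MouseWG-6 v2 arrays. The authors deposited, for each array, raw intensity values, quantile-normalized log2 values and a detection p-value per probe, and the log2 values of a second deposited table were identical (largest difference 0.0). How the arrays were scanned, and with which program they were normalized, is not given in the sources. In addition, 48 other per-sample columns were not used. Of 45281 probes, 34885 had 1 gene symbol, 18 several and 10378 none. Probes with a detection p under 0.05 on at least 3 of 24 arrays were kept (22663), and the probe with the highest mean stood for its gene. The quantile-normalized log2 values were used as given. A limma 3.58.1 model (R 4.3.3) with 1 mean for each of the 6 groups was fitted to 12011 genes, with empirical Bayes moderation and Benjamini-Hochberg adjustment at 0.05. The script was tested on simulated data.

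Groups came from the sample labels, which describe separate mice. The members and gene lists were chosen with earlier results of these data known. Named genes are, per comparison, the 6 with the largest difference in each direction among those past the threshold, or the 2 with the smallest raw p where none passed, plus genes of human cardiomyopathy and genes whose probes disagree. Some other genes were chosen after their values were seen. Not all of them are marked so, such as Mrpl48 and Mrps5 among the genes with several probes. Alternatives covered normalization, background correction, the filter, the probe, the samples fitted, array weights, blocks, background sets and leaving out each array, and 2 were added after the data had been seen. The number of arrays limits the precision.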

Additional observations from a re-analysis of the deposited data

Results flagged for a closer look

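Within groups of 4 or 5 arrays, 13 values of 156 tested groups stood apart from the other values of their group, and chance alone sets apart about 1 group in 20. Among the tested groups only, 7 of the 13 values came from the fifth severe line heart of 24 weeks. It was the lowest of its group for Mrpl14 (10.4, next 10.89), Mrpl38 (10.37, next 10.98), Mrpl58 (7.82, next 8.66), Mrps11 (8.36, next 8.72), Mrps18a (9.65, next 10.73) and Mrps6 (10.15, next 10.72), and the highest for Mrpl44 (8.42, next 7.98). Outside the 13 values, and picked after they were seen, the same heart was at 9.37 for Mrpl18, with the others at 7.96 to 8.1. For Mrps24 it was at 11.81, with the others at 12.55 to 12.68. This array also had the largest share of detected probes, 44.4%, and its part in these values was not tested.

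In the same group the first heart was the highest for Mrpl1 (9.5, next 9.25) and the third for Mrpl57 (7.13, next 6.85). The fourth mild line heart of 24 weeks was the lowest for Mrpl37 (10.83, next 11.18). Among wild type hearts, the first of 24 weeks was the highest for Mrps9 (10.92, next 10.74), and at 3 weeks the first was the highest for Mrps33 (11.96, next 11.71) and the second the lowest for Mrpl33 (12.11, next 12.38).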

How the results depend on the processing

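Leaving out 1 array at a time gave 27 to 42 lower and 0 to 1 higher genes in severe line against wild type hearts at 24 weeks (median -0.4 to -0.31) and 2 to 17 lower at 3 weeks (median -0.36 to -0.28). It gave 18 to 27 lower and 0 to 1 higher in severe against mild line hearts at 24 weeks (-0.35 to -0.26), -0.23 to -0.14 at 3 weeks, 0 to 1 lower in mild line hearts at 3 weeks (-0.18 to -0.1), -0.08 to -0.04 in mild line hearts at 24 weeks and -0.03 to 0.01 between ages in wild type. The median change of the difference with age ran from -0.09 to -0.01 in the severe and 0.04 to 0.13 in the mild line.

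With a common median over all probes, lower genes numbered 1 in severe line against wild type hearts at 24 weeks (median -0.23), 0 at 3 weeks (-0.06) and 0 in severe against mild line hearts at 24 weeks (-0.1). The medians were 0.05 in severe against mild line hearts at 3 weeks, -0.14 in the mild line at 24 weeks, 0.15 between ages in wild type, and -0.2 and -0.07 for the change with age in the severe and mild lines. Over the kept probes, added after seeing the data, they were 0 lower at 3 weeks in the severe line (-0.17), 8 lower in severe against mild line hearts at 24 weeks (-0.24), -0.06 at 3 weeks, 0.08 in wild type, and -0.2 and -0.04 for the changes with age. Normexp gave 6 lower at 3 weeks in the severe line. Fits of only the groups compared gave 21 lower at 24 weeks in the severe line, 15 in severe against mild line hearts and 2 at 3 weeks in the mild line, with fewer arrays to estimate the spread. Array weights at 3 weeks gave 29 lower in severe line hearts and 5 lower and 1 higher in mild line hearts, and 1 higher in severe against mild line hearts at 24 weeks. Wild type mice of the own colony gave 1 lower at 3 weeks in the severe line, the mean of probes gave 1 higher between ages in wild type, and leaving out both arrays with the most detected probes, also added, gave 1 higher in severe against mild line hearts at 24 weeks.

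Within the higher background set there were 14 lower and 1 higher at 24 weeks in the severe line (-0.25), 0 lower at 3 weeks, 2 lower and 1 higher in severe against mild line hearts at 24 weeks, a median of 0.0 in the mild line at 24 weeks and 0.14 for its change with age. Within the lower set there were 7 lower at 24 weeks and 0 at 3 weeks (-0.39) in the severe line, 4 lower in severe against mild line hearts at 24 weeks, and medians of -0.29 between lines at 3 weeks, -0.05 for mild line hearts at 3 weeks and -0.04 for their change with age. The replicate numbers name different mice, and residuals of same-numbered arrays correlated at a median of 0.0638 (-0.318 to 0.571). A replicate block gave 34 lower at 24 weeks and 16 at 3 weeks in the severe line, 44 in severe against mild line hearts at 24 weeks and 1 at 3 weeks, and 1 in the mild line at 3 weeks. Runs of 6 title numbers as a block at 3 weeks gave 23 lower in severe line hearts, 1 in mild line hearts and 1 between lines. Except where a value with the opposite sign or of 0.0 stands above, medians kept their direction. The causes were not tested.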
